A study of Homo sapiens with 12 samples.

Results

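The genes described here are 38 protein-coding genes of the human genome that carry a well-known microRNA inside an intron, such as MCM7 with miR-25, miR-93 and miR-106b, or SREBF2 with miR-33a. They were taken by name from a list of host genes and are 38 of the 58735 genes in the count tables. The rule used no measured value, but the list was chosen with earlier results of these data known. RNA was sequenced from HEK293T, a line from human embryonic kidney that expresses the large T antigen of SV40. Of the 4 groups of 3 libraries each, the first was transfected with a miR-211 plasmid and the second with a control plasmid, 500 ng each with Lipofectamine 2000. The third was given a Dicer-substrate siRNA at 1 nM against U1, the small nuclear RNA of the particle that recognises 5′ splice sites, and the fourth a scrambled oligo, and the titles of these last 2 groups add WT, which the labels do not explain. RNA was taken 24 h after transfection in all 4 groups and read as pairs of 126 nt. The labels give a share of transfected cells of at least 50% by GFP and a lowering of U1 by 30%, so each library mixes cells that did and did not take up the agent, and the U1 loss was partial. In such bulk RNA, fewer cells with a transcript and less transcript per cell cannot be told apart.

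An intronic microRNA is transcribed as part of its host's pre-mRNA or from a promoter of its own. The Microprocessor, made of DROSHA and DGCR8, cuts the hairpin out of the intron, exportin 5 carries it to the cytoplasm, DICER1 trims it and an Argonaute protein loads the mature strand. The seed, bases 2 to 8 of the mature strand, largely sets which messages it pairs with. Several hosts came from gene duplications that copied the hairpin together with the gene, so that related hosts carry related microRNAs, and in some of these pairs microRNA and host are known to act in 1 pathway: miR-33 and the SREBF factors, for example, both regulate cholesterol.

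The mature sequences show this pairing of hosts. They are from RefSeq on GRCh38.p14, 5′ to 3′, with the seed in capitals, and 59 of the 63 hairpins annotated inside the 38 genes had a mature strand listed there. The first 10 below come from hairpins in related hosts.
miR-33a-5p, in SREBF2: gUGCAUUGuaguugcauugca
miR-33b-5p, in SREBF1: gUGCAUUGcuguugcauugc
miR-26a-5p, in CTDSP2 and CTDSPL: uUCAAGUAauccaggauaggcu
miR-26b-5p, in CTDSP1: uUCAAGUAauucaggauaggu
miR-103a-3p, in PANK2 and PANK3: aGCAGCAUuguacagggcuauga
miR-107, in PANK1: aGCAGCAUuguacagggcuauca
miR-128-3p, in ARPP21 and R3HDM1: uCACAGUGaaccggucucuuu
miR-148b-3p, in COPZ1: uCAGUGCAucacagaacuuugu
miR-152-3p, in COPZ2: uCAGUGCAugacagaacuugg
miR-218-5p, in SLIT2 and SLIT3: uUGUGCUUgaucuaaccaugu
miR-93-5p, in MCM7: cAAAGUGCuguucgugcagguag
miR-106b-5p, in MCM7: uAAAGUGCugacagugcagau
miR-25-3p, in MCM7: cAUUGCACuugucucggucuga
miR-15b-5p, in SMC4: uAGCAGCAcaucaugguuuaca
miR-16-5p, in SMC4: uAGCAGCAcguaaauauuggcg
The last 5 are from the 2 hosts with the most read pairs over their hairpins. miR-93 and miR-106b have 1 seed in common, as do miR-15b and miR-16, whereas miR-25 has a seed of its own. Counting every mature strand listed, 10 seeds were shared by at least 2 of the hosts. Strands without an entry could not be counted, so this number is a lower bound. It includes the seed of miR-103b, whose hairpins lie on the strand opposite to PANK2 and PANK3.

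The position of the hairpin was shared as well. The hairpin lay in intron 5 of the principal transcript in PANK1, PANK2 and PANK3, at 369, 443 and 419 bases after the exon upstream. It lay in intron 16 of both SREBF1 and SREBF2, in intron 1 of both COPZ1 and COPZ2, and in intron 18 of both ARPP21 and R3HDM1. CTDSP2 and CTDSPL held it in intron 5 and CTDSP1 in intron 4, while SLIT2 held it in intron 15 and SLIT3 in intron 14. Of the 63 hairpins, 58 were on the strand of the host and 5 on the other strand, and 11 of the 38 hosts held at least 2 hairpins on their own strand. CLCN5, a chloride and proton exchanger of endosomes, held 8 of them, none inside an intron of its principal transcript. Over the 50 hairpins with a numbered intron, the intron had a median length of 4116.5 bases (89 to 98422), and 17 hairpins began within 500 bases of the exon upstream.

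Library totals over all genes ran from 4515728 to 9290686 counts. U1 siRNA replicate 2 stood apart from the other 11: it had the smallest total, and pairs outside annotated exons made up 44.5% of those that mapped to 1 place, against 14.5% to 25.5% elsewhere. The MIR211 gene had 236 to 271 CPM (counts of a gene per 1000000 counts over all genes) in the miR-211 libraries and 0.108 to 1.36 CPM in the other 9. The 15 U1 genes with an RNU1 or RNVU1 symbol summed to 18.9, 14.0 and 17.1 CPM with U1 siRNA and to 19.4, 19.3 and 16.5 CPM with the scrambled oligo, ranges that overlap. Pairs that map to several places are not in gene counts, and U1 has many near-identical copies, so the lowering stated in the labels could not be checked with these files. A list of 8 genes often seen in HEK293T cells summed to 96.5 to 120 CPM per library, with 5 of 8 at 1 CPM or more (VIM, CDH2, NEFM, KRT18 and KRT8) and NES, PAX2 and LHX1 below 1. Lists for fibroblasts, blood, melanocytes and liver reached at most 17.5, 6.64, 6.20 and 6.92 CPM, and in the first 3 the highest sum was in the U1 siRNA group.

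HEK293T cells expressed most of the host genes. With a mean of at least 1 CPM over the 12 libraries taken as expressed, 31 of 38 hosts (81.6%) were expressed, beside 11888 of 19951 protein-coding genes (59.6%) and 545 of the 728 protein-coding genes that GENCODE 29 places around a hairpin of the same strand (74.9%). The median of the expressed hosts was 18.8 CPM, beside 16.6 CPM for expressed protein-coding genes, so the hosts that were on stood near the middle of the expressed genes. The mean was at least 10 CPM in 23 hosts and at least 100 CPM in 7. The 7 hosts below the threshold were SLIT3 (0.83 CPM), PDE2A (0.50 CPM), ARPP21 (0.48 CPM), COPZ2 (0.36 CPM), GPC1 (0.34 CPM), AATK (0.23 CPM) and IGF2 (0.02 CPM). The hosts just above it were SREBF1 at 1.07 CPM and EGFL7 at 1.42 CPM. As the plot of CPM by library shows, SREBF1 and EGFL7 were below 1 CPM in some libraries, and SLIT3, PDE2A, ARPP21 and COPZ2 above it in at least 1.

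**Figure D1:**
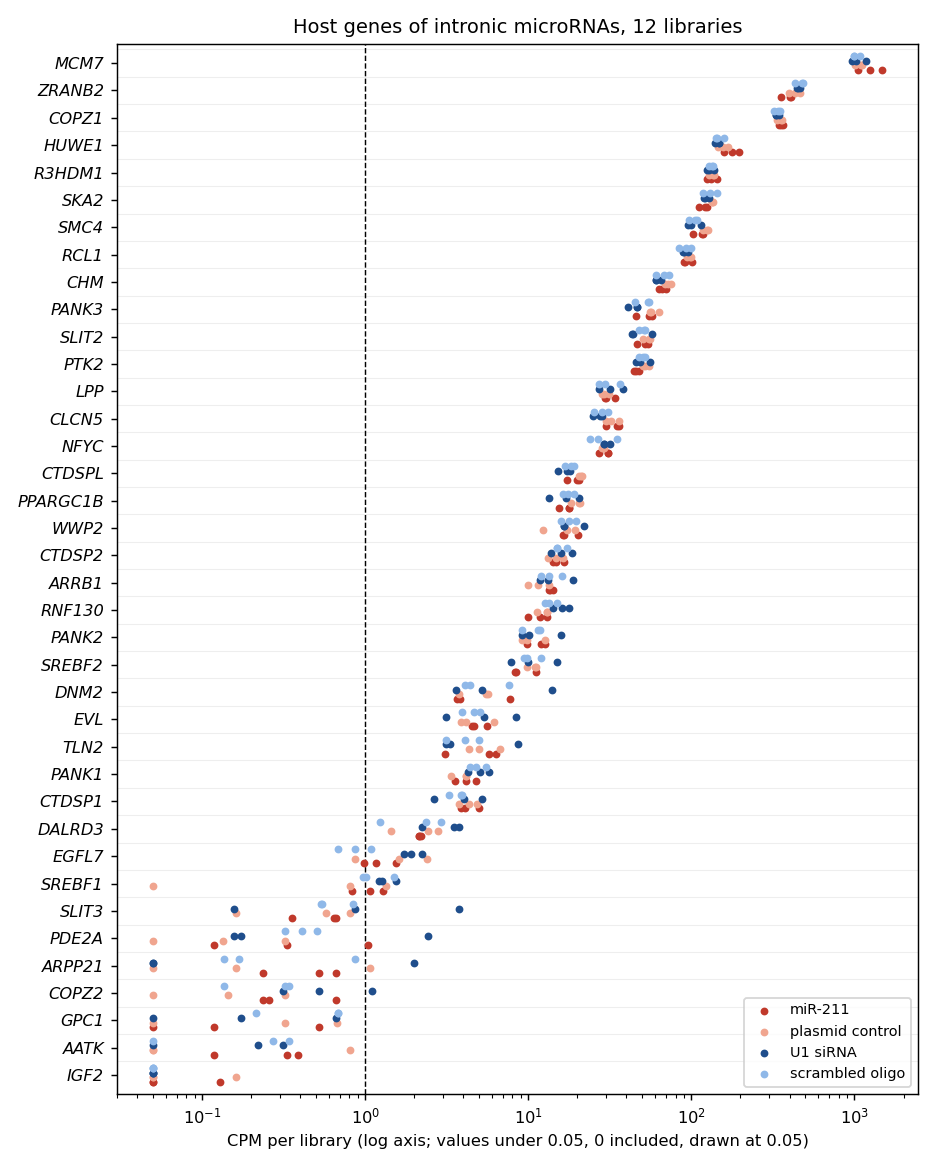
CPM of the 38 host genes in each of the 12 libraries (log axis, values under 0.05 drawn at 0.05), 1 row per gene in order of mean CPM, 1 point per library and 1 colour per group. The dashed line is at 1 CPM, and the 4 colours lie on top of each other in nearly all rows above 10 CPM, while below it U1 siRNA replicate 2 often lies to the right.

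CPM counts a long transcript more than a short one, so levels are compared between genes as CPM per kb of countable exon, the exon sequence that no other gene's exon covers. On that scale the order of the leading 3 was unchanged: MCM7 averaged 276, ZRANB2 95.02 and COPZ1 88.3 CPM per kb. SKA2 followed at 40.2, RCL1 at 22.2, SMC4 at 17.6 and R3HDM1 at 16.8 CPM per kb. HUWE1, whose transcript is among the longest of the set, was the fourth by CPM and the eighth per kb, at 9.03. LPP moved from the 13th place to the 22nd, at 1.23 CPM per kb. In all, 7 hosts reached 10 CPM per kb and 23 reached 1 CPM per kb.

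The hosts with roles in DNA replication and mitosis were all high. MCM7 (chr7:100092728-100101940, minus strand, GRCh38), a subunit of the MCM helicase that unwinds DNA at replication origins, had between 965 and 1476 CPM with a median of 1067. SMC4 (chr3:160399274-160434962, plus strand), an ATPase subunit of condensin, which compacts chromosomes, had 95.7 to 127 CPM with a median of 111. SKA2 (chr17:59109951-59155269, minus strand), part of the complex that ties kinetochores to spindle microtubules, had 111 to 144 CPM with a median of 127. All 12 libraries were thus above 95 CPM for each of the 3 genes, and the highest MCM7 value was in 1 miR-211 library. Their partners in the same complexes, from the list of partner genes, were high too: MCM3 averaged 848 CPM, MCM4 298, SMC2 223, SKA3 114 and SKA1 61.5. MCM2 was the exception at 13.7 CPM.

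Hosts that encode RNA-binding proteins split by gene. ZRANB2 (chr1:71063291-71081297, minus strand), a zinc finger protein that binds 5′ splice site sequences and hosts miR-186, had 354 to 485 CPM with a median of 437. R3HDM1, which hosts miR-128-1, had 124 to 143 CPM with a median of 133, the steadiest of these 3 genes. Its paralog ARPP21, a brain-enriched protein that hosts miR-128-2, had 0 to 1.99 CPM with a median of 0.20, and 1.99 CPM came from U1 siRNA replicate 2. RCL1, a factor of 18S ribosomal RNA processing and host of miR-101-2, had 84.5 to 100.4 CPM. DALRD3, a partner in methylation of arginine transfer RNAs and host of miR-191 and miR-425, had 1.23 to 3.78 CPM, a count limited by overlapping genes, as described further on.

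Among the hosts of membrane traffic, COPZ1 stood far above the rest. COPZ1 (chr12:54301202-54351849, plus strand), the zeta subunit of the COPI coat of Golgi vesicles, had 322 to 363 CPM with a median of 346, and its coat partners COPA, COPB2, ARCN1 and COPB1 averaged 329, 303, 266 and 261 CPM. The other coat subunits averaged 219 (COPG1), 18.6 (COPG2) and 10.5 CPM (COPE). COPZ2 (chr17:48026167-48038030, minus strand), the other zeta subunit, had 0 to 1.11 CPM with a median of 0.32. CHM, the Rab escort protein that presents Rab GTPases for prenylation, had 60.5 to 75.3 CPM, and CLCN5 had 25.1 to 35.8 CPM. DNM2, the dynamin that pinches vesicles off membranes, had 3.63 to 7.76 CPM in 11 libraries and 14.0 CPM in U1 siRNA replicate 2.

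Lipid and coenzyme A genes covered a wide range. SREBF2, the transcription factor that drives cholesterol synthesis, had 7.88 to 15.1 CPM with a median of 9.87, and SREBF1, which drives fatty acid synthesis, 0 to 1.55 CPM with a median of 1.14. PANK3, PANK2 and PANK1 are pantothenate kinases, which start the synthesis of coenzyme A, and had medians of 54.4, 10.8 and 4.33 CPM. PPARGC1B, a coactivator of mitochondrial genes and host of miR-378a, had 13.4 to 20.9 CPM.

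Of the ubiquitin ligases and transcription regulators, HUWE1 was high, CTDSP1 low and the others in between. HUWE1 (chrX:53532096-53686729, minus strand), a large HECT ubiquitin ligase that hosts miR-98 and let-7f-2, had 139 to 195 CPM with a median of 152. WWP2, another HECT ligase and host of miR-140, had 12.4 to 21.9 CPM, and RNF130, a RING finger protein and host of miR-340, 9.93 to 17.7 CPM. NFYC, a subunit of the CCAAT-binding factor NF-Y and host of miR-30e and miR-30c-1, had 23.8 to 34.9 CPM, with its partners NFYA and NFYB averaging 40.8 and 58.2 CPM. CTDSPL, CTDSP2 and CTDSP1 are small phosphatases that act on the C-terminal domain of RNA polymerase II and had medians of 18.7, 15.02 and 3.95 CPM.

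Adhesion and cytoskeleton hosts were expressed without exception. PTK2, the focal adhesion kinase, had 44.5 to 55.8 CPM, and LPP, a LIM protein of focal adhesions and host of miR-28, had 27.0 to 38.3 CPM. EVL, an Ena/VASP actin regulator and host of miR-342, had 3.14 to 8.42 CPM, and TLN2, a talin that links integrins to actin, had 3.07 to 8.64 CPM. For EVL and TLN2 the highest value of the 12 was again in U1 siRNA replicate 2.

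Most hosts that encode secreted or signalling proteins were low, with 2 exceptions. SLIT2, a secreted guidance cue that binds ROBO receptors, had 43.2 to 57.6 CPM, and its receptors ROBO1 and ROBO2 averaged 36.9 and 8.93 CPM. ARRB1, beta-arrestin 1, which binds activated G protein-coupled receptors, had 9.96 to 18.8 CPM. EGFL7 (chr9:136658856-136672678, plus strand), a secreted protein of blood vessels and host of miR-126, had 0.68 to 2.40 CPM. SLIT3 had 0.16 to 0.87 CPM in 11 libraries and 3.76 CPM in U1 siRNA replicate 2, and PDE2A, a phosphodiesterase that hydrolyses cyclic nucleotides, reached 2.44 CPM in that library, above 1.03 CPM at most in the other 11. GPC1, a glypican, and AATK, a kinase enriched in brain, stayed at or below 0.68 and 0.80 CPM in all 12 libraries. IGF2, the insulin-like growth factor, was at 0 in 10 libraries. A count of 0 still allows up to 0.323 to 0.664 CPM at these depths (3 counts per library).

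The spread over all 12 libraries followed the level. The coefficient of variation was 3.77% to 13.1% for hosts of at least 100 CPM, 5.38% to 19.1% from 10 to 100 CPM and 16.0% to 51.6% from 1 to 10 CPM. U1 siRNA replicate 2 was the library with the most pairs outside exons. It held the highest of the 12 values in 4 of 7 hosts under 1 CPM and 5 of 8 from 1 to 10 CPM. From 10 CPM it did so in 9 of 23 hosts. Over all protein-coding genes with a count those shares were 61.3%, 55.8% and 14.4%, so the hosts below 10 CPM lay near the background. Per library, 29 to 32 hosts had at least 1 CPM, and 35 in U1 siRNA replicate 2. Scrambled oligo replicate 3, the next by pairs outside exons at 25.5%, had 29. The part of reads from introns and between genes in these low values was not tested.

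In 5 of the 6 sets of paralogs, 1 gene was higher than its relatives in every library. Per kb of countable exon, COPZ1 averaged 88.3 CPM and COPZ2 0.196 CPM, a ratio of 450. R3HDM1 averaged 16.8 CPM per kb and ARPP21 0.0479, a ratio of 350, and SLIT2 averaged 5.23 CPM per kb and SLIT3 0.0608, a ratio of 85.9. These 3 low paralogs are the hosts of the second copy of miR-128 and miR-218 and of miR-152, so for these 3 shared seeds 1 host was on and the other was below 1 CPM. SREBF2 exceeded SREBF1 by 9.91 times, at 1.42 and 0.143 CPM per kb. Among the pantothenate kinases, PANK3 averaged 5.68, PANK2 1.86 and PANK1 0.660 CPM per kb, and the lowest PANK3 library was above the highest PANK2 library. In the sixth set, CTDSPL (2.64 to 3.67 CPM per kb) and CTDSP2 (2.43 to 3.42) overlapped across libraries, and both lay above CTDSP1, which averaged 0.954. The ratios describe the 12 libraries together and carry no test. COPZ2, ARPP21 and SLIT3 had only 27, 38 and 60 pairs over the 12 libraries, so the ratios to them are rough. U1 siRNA replicate 2, with the most pairs outside exons, held 5, 9 and 17 of these pairs.

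**Figure D2:**
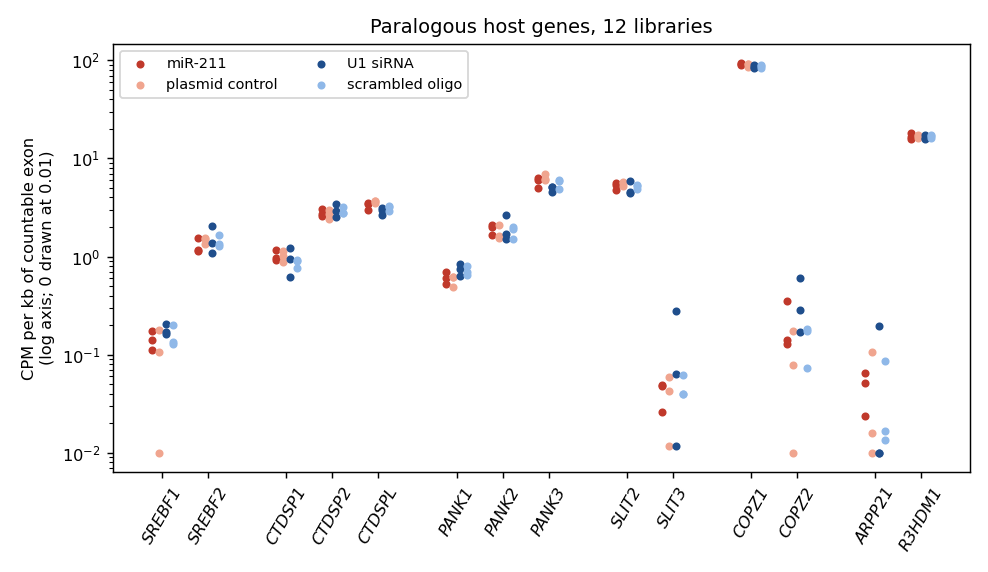
CPM per kb of countable exon (log axis, 0 drawn at 0.01) for the 6 sets of paralogous hosts, 1 point per library and 1 colour per group. COPZ1 and COPZ2 lie farthest apart, and CTDSP2 and CTDSPL are the pair that overlaps.

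Overlap with other genes limited what could be counted for some hosts. A pair over exons of 2 genes is counted for neither when strand is not used, and in 12 of the 38 hosts less than 95% of the exon sequence was free of other exons. In DALRD3 (chr3:49015488-49022293, minus strand), exons share 466 bases with WDR6 and 527 bases with NDUFAF3 on the other strand, genes at 200.04 and 128 CPM. DALRD3 had 198 pairs in all without strand, but 8463 and 7369 pairs in the 2 strand columns of the same tables, which then also take pairs of the opposite genes. Its level is therefore not known from these counts. For DNM2, which shares 776 bases with TMED1, the totals were 459 without strand and 1100 and 1071 with it, and for SMC4, which shares 1561 bases with TRIM59, 9079 and 6507 and 6741. Only 25.0% of the exon sequence of IGF2 was countable, because 2 identifiers carry the symbol and share most exons. The second identifier had 0 counts in all libraries, so the low IGF2 value is an uncertain one.

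Hosts with a low GC content tended to have the higher CPM. What sets this order was not tested. All 11 hosts whose principal transcript has under 45% GC were expressed, with a median of 51.9 CPM (4.49 to 435). Of the 12 hosts from 45% to 55% GC, 10 were expressed, and the median of all 12 was 16.7 CPM. Of the 15 at 55% or more, 10 were expressed. The median of all 15 was 2.43 CPM, which is the uncertain value of DALRD3. The same order held over all protein-coding genes, where 71.6%, 62.8% and 46.5% of the 3 classes were expressed, so it is not particular to the hosts. Across the 38 hosts Spearman's rho between GC content and mean CPM was -0.675, and across 19029 protein-coding genes with a count it was -0.326. Genes are not independent replicates and share the 12 libraries, so these are descriptions. MCM7, at 58.1% GC, was the highest host and lay far from this order.

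**Figure D3:**
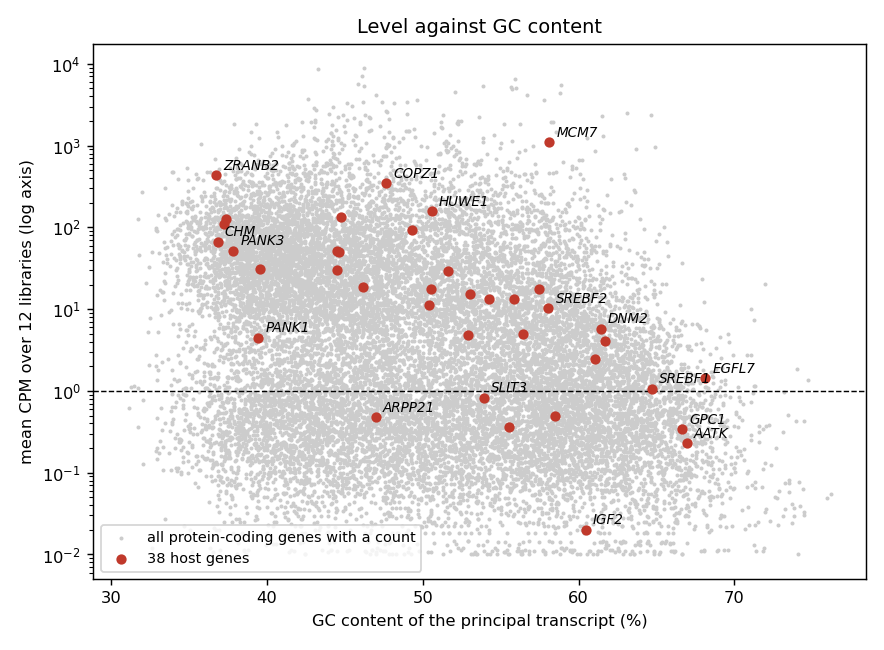
Mean CPM over 12 libraries (log axis) against the GC content of the principal transcript, with host genes in red and all protein-coding genes with a count in grey. The hosts fall from ZRANB2 at 36.7% GC and 435 CPM to AATK at 66.9% GC and 0.23 CPM, with MCM7 above the other hosts of high GC.

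The tables also count read pairs over the hairpins themselves, as short annotated genes. Mature microRNAs are far shorter than the reads, and the labels do not say how the libraries were made, so these pairs are not taken as a measure of the mature microRNA. Of the 58 hairpins on the strand of the host, 42 had a pair in some library and 16 had none, and the 12 libraries together held 1332 pairs. MIR16-2 (chr3:160404745-160404825, plus strand), in intron 5 of SMC4, held 378 of these, which is 28.4% of the total. It had 3.02 to 6.95 CPM and was counted in every library, whereas MIR15B, 59 bases away in the same intron, had 2 pairs in all. A pair over both hairpins would be counted for neither. The next were MIR25 in MCM7 with 122 pairs, MIR103A2 in PANK2 with 115, MIR378A in PPARGC1B with 100, MIR98 in HUWE1 with 94 and MIR218-1 in SLIT2 with 88.

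The hairpin counts did not simply follow the level of the host. MCM7, at 1103 CPM, had 165 pairs over its 3 hairpins, and COPZ1, at 344 CPM, had 19 over MIR148B. PANK2, at 11.2 CPM, had 115 pairs over MIR103A2, while PANK3, at 51.9 CPM, had 12 over MIR103A1. MIR103B2 and MIR103B1 overlap these 2 hairpins on the other strand, and a pair assigned to both genes was counted for neither. This loss was small. Summed over both strand columns, MIR103A2 had 1.08 times and MIR103A1 1.58 times the pairs counted without strand, so MIR103A2 stayed far above MIR103A1. The 3 hairpins of MCM7 lie only 124 and 145 bases apart, so pairs over more than 1 of them were lost as well. Across the 38 hosts Spearman's rho between mean CPM and hairpin pairs was 0.606, given as a description, since host and hairpin counts share the libraries. Of the 31 expressed hosts, 27 had a pair over a hairpin and 4 (SREBF1, TLN2, EGFL7 and RCL1) had none. An exon of the antisense gene AL158147.1 lies over MIR101-2, the hairpin of RCL1, so pairs there may have gone uncounted. Over the 7 hosts below 1 CPM the hairpins had 9 pairs in all.

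Summed over the 58 hairpins, the groups did not separate. The miR-211 libraries had 15.7, 19.03 and 14.6 CPM, and the plasmid control libraries 13.3, 12.5 and 19.4 CPM, which gave means of 16.4 ± 2.31 and 15.1 ± 3.75 CPM (SD, n = 3 each). The U1 siRNA libraries had 17.2, 22.6 and 12.7 CPM, and the scrambled oligo libraries 15.5, 16.9 and 16.1 CPM, which gave means of 17.5 ± 4.94 and 16.2 ± 0.704 CPM (SD, n = 3 each). Both differences, 1.36 and 1.29 CPM, were smaller than the larger SD of their groups. The highest value was that of U1 siRNA replicate 2, and without this library the U1 difference was -1.26 CPM. MIR16-2 alone had 26, 36 and 32 pairs with miR-211 and 26, 21 and 52 with the plasmid control, and 31, 27 and 21 with U1 siRNA against 40, 29 and 37 with the scrambled oligo.

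**Figure D4:**
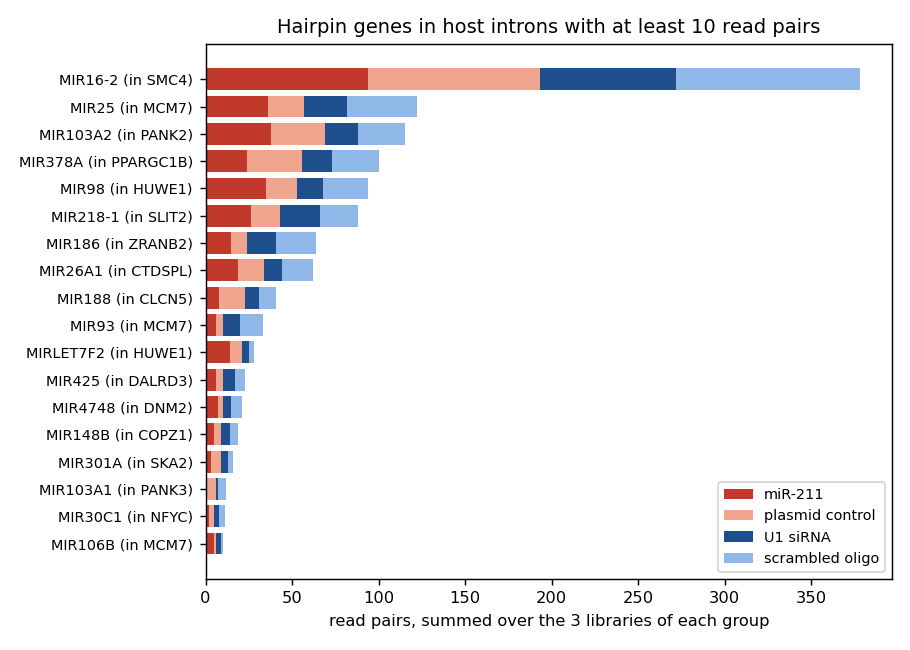
Read pairs over hairpin genes in host introns, summed over the 3 libraries of each group (stacked bars from 0, 1 colour per group), for hairpins with at least 10 pairs. MIR16-2 stands first with 378 pairs, followed by MIR25 with 122 and MIR103A2 with 115, and each of these 3 has pairs in all 4 groups.

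The first comparison asked what the miR-211 plasmid changed in the hosts. No host was called with edgeR's quasi-likelihood test at a Benjamini-Hochberg adjusted p below 0.05. Of 38 hosts, 30 passed the filter on low counts. The 8 others were the 7 hosts below 1 CPM and SREBF1. Over all 12685 genes tested 1 gene, MIR211 itself, was called (0.00788%), and the same held with the replicate numbers as a block. The log2 fold changes of the 30 hosts ran from -0.36 (EGFL7) to 0.26 (MCM7), 15 above and 15 below 0, with a median of 0.004 beside 0.008 over all genes, of which 51.8% were above 0. Their median SE was 0.12. Unadjusted p-values below 0.05 were found for 2 hosts of 30, MCM7 and HUWE1, and for 3.29% of all genes tested. This fit did not pair the libraries, and with the replicate block the numbers were 5 hosts and 943 genes.

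MCM7 had 1476, 1051 and 1254 CPM with miR-211 and 1014, 1096 and 1106 CPM with the plasmid control. The groups overlapped, since 1 miR-211 library lay below the 2 higher controls. The log2 fold change was 0.26 (SE 0.10) with an adjusted p of 0.996 by edgeR, and 0.12 without miR-211 replicate 1, the library with the highest value. Among the partners of MCM7 in replication none was called. HUWE1 had 178, 158 and 195 CPM against 168, 147 and 156 CPM, a log2 fold change of 0.20 (SE 0.09), which was 0.13 without miR-211 replicate 3. ARRB1 had 13.3, 13.6 and 14.1 CPM against 9.96, 11.5 and 13.4 CPM, a log2 fold change of 0.26 (SE 0.15), which was 0.15 without plasmid control replicate 1. The adjusted p was 0.996 for both.

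The groups did not overlap for 5 hosts, all lower with miR-211, and for 0 hosts higher, where the background over all genes was 6.42% lower, 3.29% higher and 9.7% in either direction. SKA2 had 121, 124 and 111 CPM with miR-211 and 133, 134 and 135 CPM with the control, with a log2 fold change of -0.15 (SE 0.08). PTK2 had 47.6, 45.5 and 44.5 CPM against 54.9, 52.2 and 50.8 CPM, with a log2 fold change of -0.17 (SE 0.09). Both are small shifts whose adjusted p was 0.996 by edgeR. The other 3 were PPARGC1B (log2 fold change -0.19), SMC4 (-0.11) and CTDSPL (-0.10). In the strand columns CTDSPL had -0.17 and -0.04. Without miR-211 replicate 3 the values were nearer to 0, at -0.10 for SKA2, -0.13 for PPARGC1B, -0.05 for SMC4 and -0.03 for CTDSPL.

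The second comparison asked what U1 siRNA changed in the hosts. Gene counts measure neither splicing nor intron retention. No host was called, and none of the 12413 genes tested was called either (0%, with and without the replicate block). At an unadjusted p below 0.05 there was 1 host of 30, EGFL7, and 1.58% of all genes. Over all genes that was 196 genes with edgeR, 77 with DESeq2 and 180 with limma-voom. The log2 fold changes of the 30 hosts ran from -0.20 to 1.11, with 28 of them within 0.5 of 0, a median of 0.01 beside 0.02 over all genes, and a median SE of 0.14. Of the hosts 16 were above 0 and 14 below, and of all genes 54.7% were above 0. Without U1 siRNA replicate 2 there were still 0 called hosts, the median was -0.07, and 8 hosts were above and 22 below 0, beside a median of 0.002 over all genes, with 6269 above and 6144 below 0.

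EGFL7 was the 1 host whose groups did not overlap, with 1.73, 2.21 and 1.92 CPM under U1 siRNA and 1.09, 0.68 and 0.86 CPM under the scrambled oligo. The background over all genes was 3.54% higher, 2.92% lower and 6.45% in either direction. Its log2 fold change was 1.11 (SE 0.39), with an adjusted p of 0.9999 by edgeR, and 1.04 without U1 siRNA replicate 2. EGFL7 had 114 pairs over the 12 libraries, and it was below the filter in the strand columns. PANK3, a pantothenate kinase, had 46.5, 46.7 and 41.1 CPM against 53.8, 54.9 and 44.9 CPM, so the groups overlapped, with a log2 fold change of -0.20 (SE 0.11). RNF130 had 16.1, 17.7 and 14.1 CPM against 13.4, 14.9 and 12.7 CPM, with a log2 fold change of 0.22 (SE 0.14). CHM had 60.5, 64.9 and 60.8 CPM against 68.4, 72.7 and 60.6 CPM, with a log2 fold change of -0.12 (SE 0.09). DALRD3 had a log2 fold change of 0.55 (SE 0.40), on the uncertain counts described above. It ran from 0.26 (without scrambled oligo replicate 1) to 0.84 (without scrambled oligo replicate 3), and was 0.23 and 0.04 in the 2 strand columns. In the strand columns the values were -0.29 and -0.10 for PANK3, 0.07 and 0.36 for RNF130, and -0.03 and -0.20 for CHM, which had -0.07 without scrambled oligo replicate 2 and -0.20 without scrambled oligo replicate 3. The adjusted p of these 4 hosts was 0.9999 by edgeR.

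The fold changes under U1 siRNA lined up with GC content. All 9 tested hosts at 55% GC or more had a value above 0, as did 5 of 10 from 45% to 55% and 2 of 11 below 45%. Over all tested genes with a transcript the shares above 0 in these classes were 68.5%, 60.1% and 39.8%. Spearman's rho between GC content and log2 fold change over the 30 hosts was 0.752, and over all genes with a transcript it was 0.270. Without U1 siRNA replicate 2, which had the most pairs outside exons, rho over the hosts was 0.187 and over all genes 0.205, and 4 of the 9 hosts of high GC were above 0. In the 2 strand columns, over 29 hosts, rho was 0.425 and 0.492. For miR-211 rho over the hosts was 0.269 and over all genes 0.284, and 6 of 9, 5 of 10 and 4 of 11 hosts were above 0, beside 63.8%, 62.6% and 34.5% of all genes in these classes. Leaving out 1 library moved the miR-211 value over the hosts between 0.0007, when plasmid control replicate 2 was left out, and 0.535, when plasmid control replicate 3 was left out. Without miR-211 replicate 1 it was 0.395 and without the third miR-211 library 0.02. These correlations run over genes that share 6 libraries and are descriptions.

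**Figure D5:**
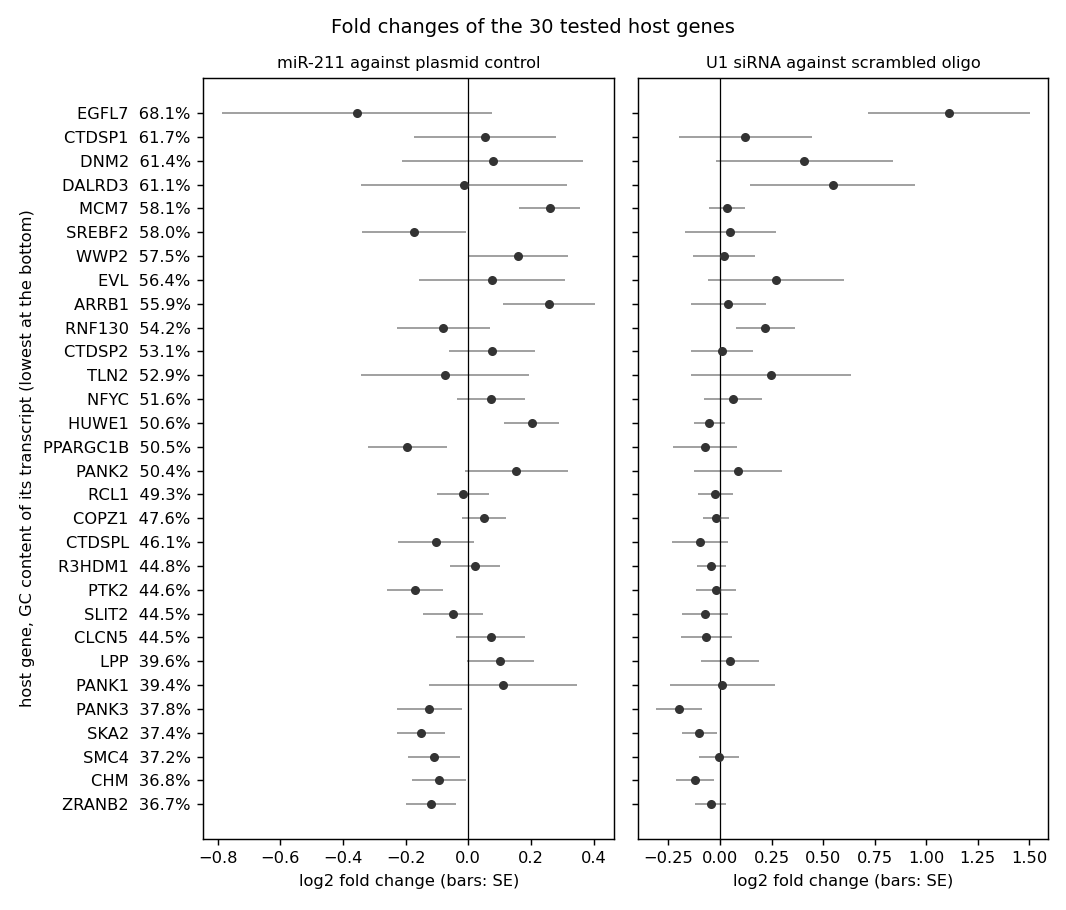
Log2 fold changes with SE bars from edgeR for the 30 tested hosts in both comparisons, in order of GC content with the lowest at the bottom; the 2 panels have different x axes. In the U1 siRNA panel the 9 hosts at the top are all to the right of 0, and EGFL7 at 1.11 is the farthest from 0.

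The partner genes gave no calls. Of 47 partner genes (the other MCM and condensin subunits, the SREBF activation machinery, the COPI coat, coenzyme A enzymes, NF-Y and SKA partners, ROBO receptors and others), 46 were tested and none was called in either comparison, with medians of 0.008 for miR-211 and -0.007 for U1 siRNA, which was 0.03 without U1 siRNA replicate 2. For miR-211 7 of the 46 had an unadjusted p below 0.05, beside 3.29% of all genes tested. SCAP, which escorts SREBF proteins to the Golgi, had a log2 fold change of 0.55 (SE 0.16), COPG1, a COPI subunit, 0.45 (SE 0.16), ROBO2 0.43 (SE 0.17), POLR2A, the large subunit of RNA polymerase II, 0.37 (SE 0.13) and NCAPD2, a condensin subunit, 0.20 (SE 0.09). PPCS, an enzyme of coenzyme A synthesis, had -0.23 (SE 0.10) and CHML, the relative of CHM, -0.26 (SE 0.11), and all 7 had an adjusted p of 0.996 by edgeR. For U1 siRNA 0 of the 46 had an unadjusted p below 0.05.

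Of 41 further hosts of intronic microRNAs, 22 were tested and none was called in either comparison. HNRNPK, an RNA-binding protein, averaged 1960 CPM, and TRPM1, the melanocyte channel gene that hosts MIR211 itself, 1.19 CPM. The TRPM1 mean leaned on 1 library, U1 siRNA replicate 2, at 5.31 CPM. By group TRPM1 averaged 0.82 (miR-211), 0.81 (plasmid control), 2.11 (U1 siRNA) and 1.04 CPM (scrambled oligo). TRPM1 was below the filter on low counts in both comparisons, so it was not tested. Of the annotated hosts outside the 38, 454 were tested for miR-211 and 445 for U1 siRNA. None was called, and their medians were 0.03 and 0.04, the second of which was -0.01 without U1 siRNA replicate 2. All 13 genes of microRNA processing were tested and none was called. DROSHA averaged 70.6 CPM, DGCR8 12.3, XPO5 (exportin 5) 200.1, DICER1 57.2 and AGO2, an Argonaute, 50.2 CPM, so RNA for the machinery that frees and loads the hairpins was measured in these cells. DROSHA had a log2 fold change of 0.13 (SE 0.09) with miR-211 and 0.02 (SE 0.09) with U1 siRNA, and DICER1 -0.05 (SE 0.09) and -0.07 (SE 0.10).

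Some hosts carry a match to the miR-211 seed. The 8-base match AAAGGGAA was searched on the sense strand in the 3′ UTR of each principal transcript. It was found in 2 of the 38 hosts (5.26%), LPP and SLIT3, with 2 matches each, and in 6.99% of 19684 protein-coding genes. A match to the 7 seed bases alone was found in 6 more (15.8%), ARRB1, CTDSP2, CTDSPL, PANK1, PPARGC1B and PTK2, and in 7.94% of the same protein-coding genes. Of these genes 18941 have a 3′ UTR, so both background shares include genes that cannot hold a match. LPP had a log2 fold change of 0.10 (SE 0.11) with miR-211, and SLIT3 was below the filter. Of the 6, PTK2, PPARGC1B and CTDSPL were among the 5 hosts whose libraries were all lower with miR-211, while ARRB1, PANK1 and CTDSP2 had values above 0. A match is a description of the sequence, and the files hold no measure of binding.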

How the data were processed

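The deposited tables hold raw counts of read pairs per gene in STAR's layout, 1 table per library. STAR 2.7.2a, GRCh37 and hg19 are named per the submitters' processing notes, yet all 58735 gene identifiers are those of GENCODE 29, made on GRCh38. Every coordinate here is from GENCODE 29, and the build of the alignment is uncertain. The labels do not say how RNA was selected. The 4 summary lines were left out of totals and tests.

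CPM was computed from the unstranded counts. Each comparison was tested on its 6 libraries and all genes with edgeR 4.0.16 in R 4.3.3 (TMM scaling, filterByExpr, quasi-likelihood test, Benjamini-Hochberg, threshold 0.05). Alternatives were DESeq2 1.42.0, limma-voom (limma 3.58.1), RLE scaling, no filter, a replicate block, both strand columns and leaving out each library. The fit was also run on counts simulated from the spread of these libraries, with changes larger than those of the hosts under miR-211. That run does not show how often shifts as small as those of the hosts would be called. Totals of 4515728 to 9290686 counts set the precision, and floors cover counting error only. Groups and replicate numbers came from the labels, which do not state separate cultures. Each p-value therefore reflects the variation among these libraries alone, and that variation may be technical. Same-numbered miR-211 and plasmid control libraries deviated together (correlations 0.254, 0.244 and 0.259 over genes), so the numbers were taken to pair them. The main fit did not use this pairing, which entered only in the runs with a replicate block.

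All 38 hosts are given by CPM. Fold changes are given for the 5 hosts with the smallest p per comparison, with others named by their groups not overlapping or by their range. The hosts and gene lists were chosen with earlier results of these data known. In the list of further hosts, AOPEP was found under its older symbol C9orf3.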

Additional observations from a re-analysis of the deposited data

How the results depend on the processing

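Hosts under 10 CPM rest on few pairs. No host was called under any alternative run. The hosts named for a small p or for groups without overlap gave 167 alternative values. All of these kept their direction and their side of the threshold. Those hosts were picked from these data, and the other tested hosts were not followed in this way. Under U1 siRNA, 16 of the 30 tested hosts were above 0 in the main fit and 8 without U1 siRNA replicate 2. Over all genes, 2 genes instead of 1 were called for miR-211 with no filter on low counts and in each strand column, and 7 instead of 0 for U1 siRNA with no filter. The cause was not tested. The median log2 fold change of the tested hosts for miR-211 was -0.0631 in the first strand column. For U1 siRNA it was -0.0603 with no filter, which adds the hosts of lowest counts. Leaving out 1 library at a time, it ran from -0.0469 to 0.00965 for miR-211 and from -0.0650 to 0.0183 for U1 siRNA. The difference in summed hairpin CPM ran from 0.0586 to 3.51 and from -1.26 to 3.68.

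The replicate block changed no call. For miR-211, 5 hosts instead of 2 had an unadjusted p below 0.05 (943 genes in all), the smallest adjusted p of a host was 0.625 by edgeR, and the median was 0.0122. Same-numbered libraries of U1 siRNA and scrambled oligo did not all deviate together (0.124, 0.109 and -0.0155) and share only a number. With the block their median was 0.0112.

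The expressed hosts numbered 32 at a threshold of 0.5 CPM, 29 at 2 CPM, 29 when 1 CPM was asked of each of the 12 libraries, and 31 without any 1 library.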
